A study of Mus musculus with 12 samples.

Results

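The comparison described here set the meninges of uninjured aged mice against those of uninjured young mice. Its members were taken from the labels alone: the 3 bulk RNA libraries labelled Aged Sham and the 3 labelled Young Sham, which made 6 of the 12 libraries of the series. The other 6 libraries came from Aged TBI and Young TBI mice, which had received a mild traumatic brain injury (TBI) through the closed skull, and they entered the fit only for the spread between libraries and for values set beside the sham ones. Every animal was a male wild-type mouse of the strain that the labels give as C57BL/6, and the sham procedure consisted of isoflurane anaesthesia and placement of the impactor without an impact. Young Sham mice were 10 weeks old and Aged Sham mice were 20 to 24 months old by the labels, and tissue was taken 1.5 months after the procedure. The young mice came from a commercial breeder and the aged mice from a national colony for ageing research before housing in the same facility, so supplier and age cannot be told apart in this design. Each library held the dorsal meninges of 2 or 3 mice pooled together, so that the 3 libraries of a group were 3 pools and the spread between single animals was averaged within each of them.

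The meninges are the membranes around the brain: the outer dura, the arachnoid with its barrier cell layer, and the thin pia. Dural fibroblasts lay down a dense collagen matrix, arachnoid barrier cells are joined by tight junctions and carry efflux and organic anion transporters, and the dura holds blood and lymphatic vessels, border macrophages, lymphocytes and marrow-derived cells that can arrive from the skull. With age this tissue is known to gain lymphocytes and plasma cells, and its collagen is known to be laid down mostly in growth and early adult life.

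Levels are given as CPM, the counts of a gene per 1000000 counts of the library total after scaling with TMM factors, and every level is that of 1 library. Library totals ran from 10734413 to 14766075 counts in the 6 sham libraries. The defining genes of meningeal fibroblasts, arachnoid barrier cells, macrophages, endothelium and mural cells were detected in all 6 libraries, for example Dcn at 771 to 1059 CPM, Cldn11 at 183 to 269 CPM and Mrc1 at 175 to 212 CPM. Genes of neighbouring tissues were present as well. The choroid plexus gene Ttr lay between 2136 and 3700 CPM in these libraries and did not pass the test for a difference between the ages. Among the pineal genes of melatonin synthesis, Tph1 lay between 541 and 898 CPM and was not called, Asmt was at 50.2, 69.4 and 60.9 CPM in Young Sham and 43.4, 31.3 and 35.9 CPM in Aged Sham and was called lower with and without Aged Sham 3, and Aanat, at 0.667, 0.543 and 0.926 against 0.469, 7.07 and 10.3 CPM, was called higher with all libraries (adjusted p = 0.0932) and not without Aged Sham 3 (adjusted p = 0.216). Mitochondrially encoded genes took 1.32 to 1.44% of the counts in Young Sham and 1.49 to 1.68% in Aged Sham (exact permutation p = 0.1, two-sided). Of 12 such genes tested, edgeR called 0 with or without Aged Sham 3 and DESeq2 called 1, while 2 had an unadjusted p under 0.05. The part of the difference in share in the other results was not tested.

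One library stood apart within its group. In 35 genes, 3 of them immunoglobulin segments, Aged Sham 3 was at least 4 times the next highest sham library and at 5 CPM or more, against 0 to 8 such genes in the other 5 libraries. Growth hormone (Gh), a pituitary product, was at 1033 CPM in Aged Sham 3 and at 9.34, 0.204 and 0 CPM in Young Sham 1 to 3, with 1.88 CPM in Aged Sham 1 and 0 in Aged Sham 2. Among the other pituitary genes, Ghrhr, which encodes the receptor for growth hormone releasing hormone, had 34 counts in Aged Sham 3 and 0 in the other 5 libraries, and Pou1f1, a factor of the cells that make growth hormone, had 9 counts there and 1 to 4 elsewhere. Prl had 4 counts in Aged Sham 3, Lhb and Fshb had 0 counts in every sham library, and Pomc lay between 2.58 and 3.26 CPM in all 6. The hormone subunit gene Cga was higher in every aged library than in every young one, and its values stand below with the brain genes. Bone sialoprotein (Ibsp) was at 973 CPM in Aged Sham 3 against 44.2 to 75.2 CPM in the other 5 libraries. Gh and Ibsp both passed the age test with all libraries, Gh at 6.92 on the log2 scale (adjusted p = 0.094) and Ibsp at 2.56 (adjusted p = 0.092), and turned to -1.74 (adjusted p = 0.579) and -0.14 (adjusted p = 0.818) without Aged Sham 3. A smaller mark of skin was found in Young Sham 2, where the epidermal keratins Krt14 and Krt5 were at 91.6 and 39.9 CPM against at most 1.05 and 1.33 CPM in the other 5 libraries.

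Aged Sham 3 was also high in genes of osteoclasts, the cells that resorb bone, a set singled out after these values were seen. Acp5, the tartrate-resistant acid phosphatase of osteoclasts, was at 492 CPM in Aged Sham 3 against 37.8 to 71.4 CPM elsewhere, and the collagen-degrading protease Ctsk was at 1011 CPM against 186 to 324 CPM and was called lower only without this library (adjusted p = 0.0874). Mmp9 stood at 842 CPM against 88.1 to 137 CPM, Mmp13 at 1451 CPM against 95.1 to 233 CPM, and the fusion gene Ocstamp at 11 CPM against 0.544 to 1.29 CPM. Genes of bone-forming cells divided. The bone matrix genes Spp1 and Dmp1 were high in this library like Ibsp, at 2556 and 67.9 CPM against 199.6 to 352 and 8.58 to 14.8 CPM elsewhere, and both were called higher with all libraries only. In contrast, Col1a1, Alpl, Runx2, Sp7, Bglap and Bglap2, all known from osteoblasts, were called lower with and without it. Col1a1 is also a fibroblast gene, and the study uses Alpl as a marker of dural fibroblasts. The part of each cell type in their fall was not tested. The hormone osteocalcin (Bglap2) was at 73.4, 67.6 and 78.5 CPM in Young Sham and 40.3, 29.8 and 16.9 CPM in Aged Sham, so that Aged Sham 3 was the lowest of the 6. Bglap2 fell with age with a log2 fold change of -1.33 ± 0.28 (SE; adjusted p = 0.013), and it also fell without Aged Sham 3, at -1.06 (adjusted p = 0.019). Of the 18 tested bone genes, 3 were called higher and 8 lower with all libraries, and 0 higher and 8 lower (7 of the same 8) without Aged Sham 3. The counts of calls below are given without this library as well where it changed them.

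**Figure D1:**
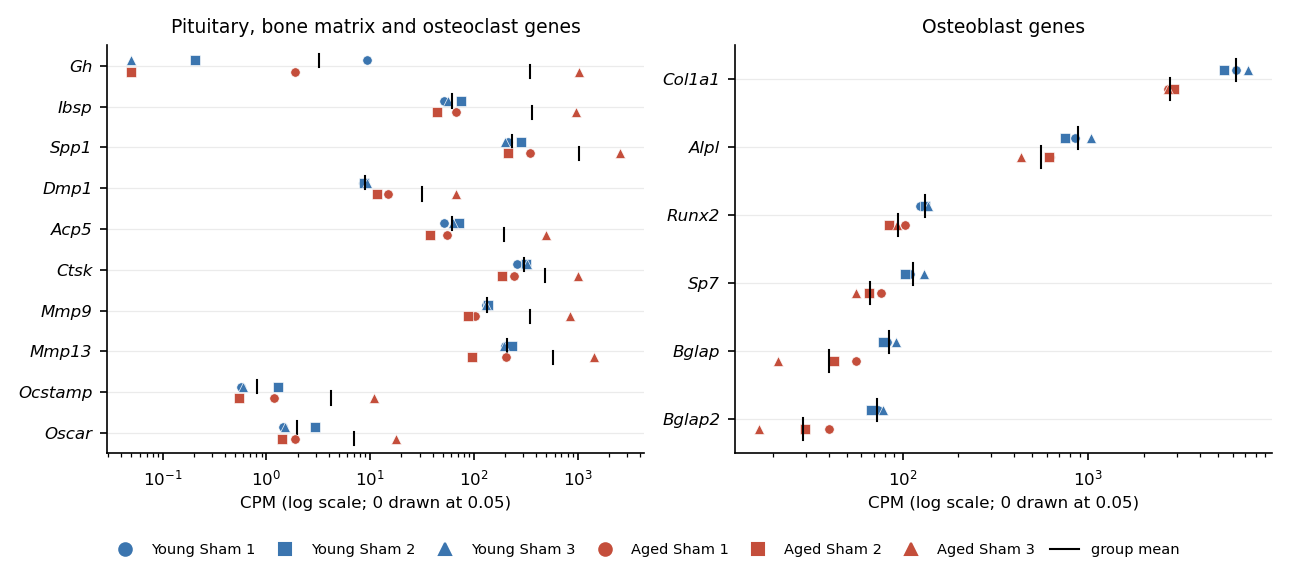
Levels in CPM (log axis) of pituitary, bone matrix and osteoclast genes (left) and of genes known from osteoblasts that were called lower (right) in each sham library, with the group means as black bars. Col1a1 and Alpl are also known from fibroblasts. Aged Sham 3 lies to the right of the other 5 libraries in every row on the left, and on the right the 3 Aged Sham libraries lie to the left of the 3 Young Sham libraries in every row.

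A broad set of genes differed between the ages by modest amounts. Of 18238 genes tested, 2845 passed an adjusted p of 0.1 (15.6%), 1439 of them higher in Aged Sham (7.89% of the genes tested) and 1406 lower (7.71%). The size of the log2 fold change had a median of 0.66 among genes called higher, whose median level was 14.3 CPM, and of 0.36 among genes called lower, whose median level was 60.9 CPM. Changes beyond 2-fold were found in 438 genes called higher and 100 called lower. The 3 Aged Sham and 3 Young Sham libraries did not overlap in 2690 of the 2845 called genes, against 28.4% of all genes tested, the called ones included. Calls and overlap rest on the same values, so this is not a second test. With library totals in place of TMM factors, 2930 genes were called and 66.3% of the calls were higher, against 50.6% with TMM. The counts for gene lists below stand against the shares over all genes tested, 7.89% higher and 7.71% lower.

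Without Aged Sham 3, 2452 genes were called (13.4%), 1086 higher (5.95%) and 1366 lower (7.49%). The call was kept in the same direction by 942 of the 1439 genes higher and by 1047 of the 1406 lower, while 144 and 319 genes were gained. The count depended on other libraries too: it was 1882 without Young Sham 1, 1249 without Young Sham 3 and 1756 without Aged Sham 2. Calls were kept in all 12 refits that left out 1 library each by 496 genes called higher and 574 called lower. In bulk tissue a lower value can come from fewer cells of a type or from less RNA per cell, and these cannot be told apart here.

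The genes with the largest changes were taken by a rule on the fold change and the level. The rule also required no overlap between the ages and a call both with and without Aged Sham 3. The set included immunoglobulin heavy chains, neuronal genes and matrix genes. Scgn (ENSMUSG00000021337, chr13:23953456-23991214) encodes the calcium-binding protein secretagogin. Its level was 0.858, 1.09 and 0.757 CPM in Young Sham and 11, 9.11 and 8.44 CPM in Aged Sham, with a log2 fold change of 3.37 ± 0.18 (adjusted p = 7.14e-06). Trank1 (ENSMUSG00000062296, chr9:111311739-111395775) stood at 2.67, 4.35 and 3.7 CPM in Young Sham and 36.9, 34.4 and 21.1 CPM in Aged Sham, a log2 fold change of 3.08 ± 0.26 (adjusted p = 0.000239). The rule required the ages not to overlap, and in both genes the lowest aged library was far above the highest young one. Leaving out Aged Sham 3 gave log2 fold changes of 3.45 and 3.29.

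Further genes of this set are known from neurons. Prrxl1, a homeodomain factor of sensory neurons, was at 0.763, 0.747 and 0.589 CPM in Young Sham and 6.02, 5.44 and 5.68 CPM in Aged Sham (log2 fold change 3.01 ± 0.25, adjusted p = 0.000239). The orphan receptor gene Gpr158 rose from 1.43, 1.83 and 1.77 to 16.2, 11.9 and 9.73 CPM (log2 fold change 2.89 ± 0.31). Neuropeptide Y (Npy), a transmitter of sympathetic nerve fibres, rose by 2.73 ± 0.45 on the log2 scale, with 0.667, 0.272 and 0.926 CPM in the young libraries and 4.85, 4.96 and 2.27 CPM in the aged ones. In all 3 genes every aged library lay above every young one, which the rule required. The rest of the 12 genes higher were Sult1c1, a sulfotransferase, the granulocyte precursor gene Ms4a3, the receptor gene Gpr31c, which has close copies, the nonclassical class I gene H2-M11 and the heavy chain genes Ighg2b, Igha and Ighg1. The size of the Sult1c1 change rested on 1 library: the gene was at 0.667, 0.0679 and 0.168 CPM in Young Sham and 1.41, 1.16 and 12.2 CPM in Aged Sham, and its log2 fold change of 4.09 became 2.18 without Aged Sham 3.

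Among the genes with the largest decreases, Nppc encodes C-type natriuretic peptide, a paracrine peptide of endothelium and cartilage. It was at 7.82, 11.2 and 8.67 CPM in Young Sham and 3.6, 1.36 and 0.568 CPM in Aged Sham, a log2 fold change of -2.33 ± 0.42 (adjusted p = 0.00647). Ostn, which encodes a secreted peptide that binds the natriuretic peptide clearance receptor, went from 11.3, 10.3 and 14.4 to 5.39, 3.13 and 2.43 CPM (log2 fold change -1.72 ± 0.28, adjusted p = 0.00392). Both peptides were lowest in Aged Sham 3, and both remained called without it, as the rule required. The macrophage product Retnla went from 1.43, 2.85 and 1.01 to 0.156, 0.408 and 0.162 CPM (log2 fold change -2.80 ± 0.65, adjusted p = 0.0213). Nrk, a kinase gene, went from 7.06, 8.76 and 8.84 to 2.03, 1.7 and 1.46 CPM (log2 fold change -2.24 ± 0.29, adjusted p = 0.00136). The remaining genes of this set were the matrix genes Cilp2, Col6a5 and Egfl6, the heparan sulfate sulfotransferase Hs3st2, the synaptic membrane protein gene Elfn2, the granzyme Gzma, the potassium channel gene Kcna4 and the cholecystokinin receptor Cckbr, with log2 fold changes between -1.97 and -1.67.

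**Figure D2:**
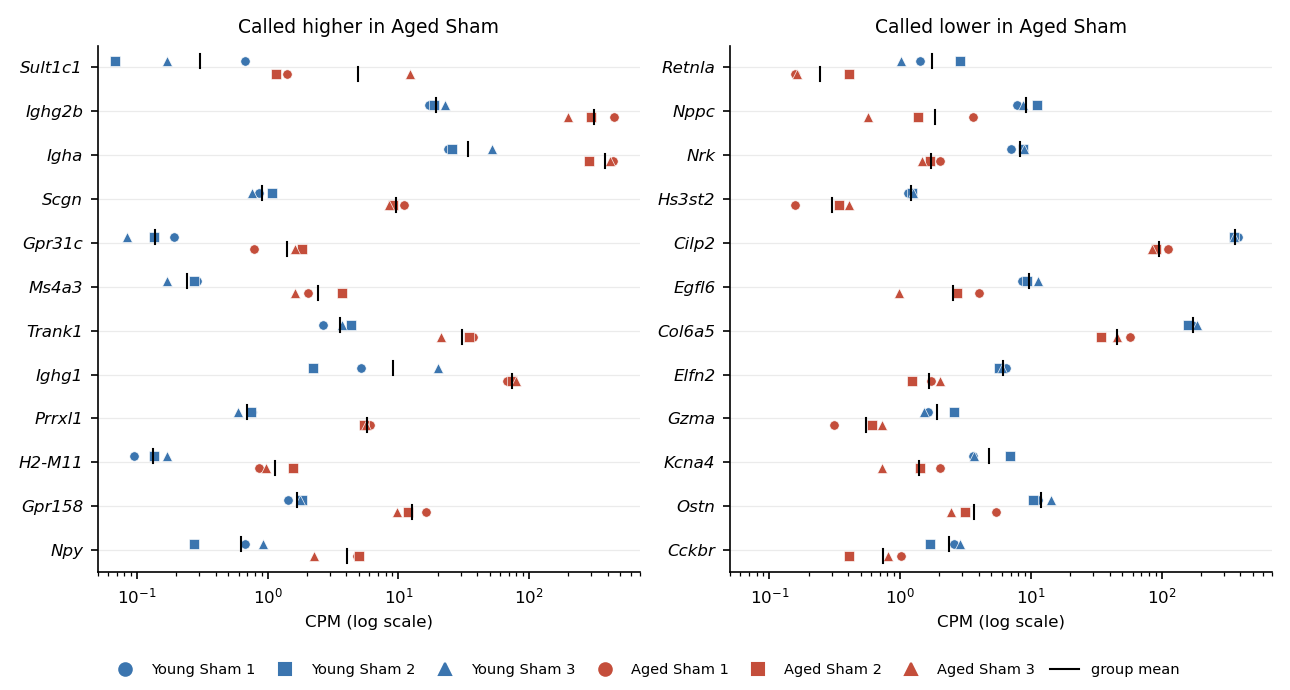
Levels in CPM (log axis) of the 12 genes called higher and the 12 called lower with the largest changes, in each of the 6 sham libraries, with the group means as black bars. Young and aged libraries are separated in every row, as the rule required, and in Sult1c1 the aged mean is carried by Aged Sham 3 at 12.2 CPM.

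Of 29 tested genes for collagen hydroxylation, chaperoning, trimming and crosslinking, 0 were called higher and 14 lower, with a median log2 fold change of -0.33 against 0.01 over all genes tested. Adamts3, a protease that removes the amino propeptide of procollagen, was at 16.6, 16.2 and 12.5 CPM in Young Sham and 7.19, 5.85 and 7.22 CPM in Aged Sham (log2 fold change -1.16 ± 0.18, adjusted p = 0.00339). Loxl1 (ENSMUSG00000032334, chr9:58287738-58313186), a lysyl oxidase that crosslinks elastin and collagen, was at 515, 434 and 564 CPM against 278, 237 and 255 CPM (log2 fold change -0.97 ± 0.11, adjusted p = 0.000934). Serpinh1, the collagen chaperone HSP47, was at 995, 912 and 1058 CPM against 652, 556 and 489 CPM (log2 fold change -0.80 ± 0.11, adjusted p = 0.00191). In each of the 3 genes all aged libraries lay below all young ones. P4ha3, which encodes a subunit of the collagen prolyl hydroxylase, fell from 34.6, 33.8 and 45.2 to 25.9, 25.4 and 21.8 CPM (log2 fold change -0.63 ± 0.13).

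Without Aged Sham 3, 19 of the 29 genes were called lower and 0 higher, and all 14 calls made with it were kept. Lysyl oxidase itself (Lox), named after its values were seen, was at 175, 178 and 169.9 CPM in Young Sham, at 119 and 127 CPM in Aged Sham 1 and 2 and at 422 CPM in Aged Sham 3. Its log2 fold change was 0.35 ± 0.39 with all libraries (adjusted p = 0.625) and -0.50 without Aged Sham 3 (adjusted p = 0.0946), so that its direction turned with this library. The procollagen C-proteinase Bmp1 and the lysyl hydroxylases Plod1 and Plod2, also named after their values were seen, were called lower without Aged Sham 3 at -0.40, -0.43 and -0.55, and were not called with it.

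Calls among the collagens themselves differed by type. Of 11 tested fibrillar collagen genes, 0 rose and 8 fell (9 without Aged Sham 3), with a median log2 fold change of -0.92. Col11a1, a minor fibrillar chain that nucleates fibrils, was at 102, 108 and 128 CPM in Young Sham and 49.3, 46.6 and 46.9 CPM in Aged Sham (log2 fold change -1.24 ± 0.13, adjusted p = 0.000714), and the libraries did not overlap. Col3a1, which forms type III collagen, fell as well, with a log2 fold change of -1.12 ± 0.18 (adjusted p = 0.00432). With all libraries, edgeR and DESeq2 called 0 of the 6 type IV collagen genes of basement membranes (1 had an unadjusted p under 0.05). Without Aged Sham 3, 1 was called higher and 2 lower. The summed level of the 6 genes was 891 to 1056 CPM in Young Sham. It was 587 and 669 CPM in Aged Sham 1 and 2 and 1174 CPM in Aged Sham 3. The absence of type IV calls thus depended on Aged Sham 3. Of the other collagens, 4 of 20 were called higher and 7 lower, and 3 and 7 without Aged Sham 3. Col16a1, a fibril-associated collagen, went from 542, 505 and 642 to 279.9, 253 and 215 CPM (log2 fold change -1.18 ± 0.12, adjusted p = 0.000531), whereas the transmembrane collagen Col13a1 rose from 46.1, 44.3 and 45 to 69, 59.4 and 57.4 CPM (log2 fold change 0.46 ± 0.09, adjusted p = 0.011).

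Of 15 tested small leucine-rich proteoglycans, 0 were called higher and 7 lower (median -0.34), and 0 and 9 without Aged Sham 3. Chondroadherin (Chad) was at 486, 544 and 462 CPM in Young Sham and 272, 196 and 309.6 CPM in Aged Sham (log2 fold change -0.94 ± 0.20, adjusted p = 0.0132), and fibromodulin (Fmod), which steers fibril assembly, went from 2249, 1925 and 2432 to 1563, 1574 and 1357 CPM (log2 fold change -0.56 ± 0.10, adjusted p = 0.0071). Bgn and Dcn passed the test with small values, at -0.19 ± 0.06 and -0.24 ± 0.08. Lumican (Lum) did not pass it with all libraries (-0.40 ± 0.17, adjusted p = 0.153) and did without Aged Sham 3 (-0.57, adjusted p = 0.0476). Among 19 genes of elastic fibres and microfibrils, 9 were called lower and 1 higher, and 10 and 1 without Aged Sham 3: Emilin1 and Mfap2 fell, with log2 fold changes of -0.71 ± 0.09 and -0.65 ± 0.07, while Mfap5 rose by 0.33 ± 0.08. Elastin (Eln) was not called with all libraries, at 0.05 ± 0.22 (adjusted p = 0.919), and was called lower without Aged Sham 3, at -0.36 (adjusted p = 0.0732).

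Of 33 tested metalloproteinases and inhibitors, 2 were called higher and 9 lower, and 1 and 15 without Aged Sham 3. Adamts17, which acts on fibrillin microfibrils, was at 32.7, 30.3 and 35.8 CPM in Young Sham and 13.8, 12 and 10.9 CPM in Aged Sham (log2 fold change -1.43 ± 0.16, adjusted p = 0.000721). The macrophage elastase Mmp12 was the gene called higher in both fits, at 3.53, 2.65 and 2.52 CPM against 6.88, 6.19 and 9 CPM (log2 fold change 1.35 ± 0.19, and 1.18 without that library). Of 32 matricellular and connective tissue glycoproteins, 13 were called lower and 1 higher, and 14 (11 of the 13) and 1 without Aged Sham 3. Periostin (Postn) and the tenascin Tnn fell, with log2 fold changes of -1.53 ± 0.24 and -0.87 ± 0.25, and Ccn3 rose by 0.86 ± 0.17. Hapln1 and Acan, the link protein and core protein of aggrecan aggregates, fell with log2 fold changes of -1.23 ± 0.27 and -0.96 ± 0.16.

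In basement membranes the laminins and nidogens were called lower in 6 of 16 and higher in 1, and in 7 and 0 without Aged Sham 3. Perlecan (Hspg2), a heparan sulfate proteoglycan, was at 605, 525 and 634 CPM in Young Sham and 348, 436 and 468 CPM in Aged Sham (log2 fold change -0.49 ± 0.10, adjusted p = 0.0113). The laminin chain Lamb1 went from 139, 121 and 137 to 90, 89.9 and 117 CPM, with Aged Sham 3 nearest to the young level, while Lama1, the chain of embryonic and pial basement membranes, rose from 4, 4.55 and 4.46 to 6.65, 8.02 and 10.4 CPM (log2 fold change 0.94, adjusted p = 0.0396, and 0.109 without Aged Sham 3). Of 5 type VI collagen chains, which form beaded filaments, 4 were called lower and 1 higher: Col6a3 went from 479, 469 and 652 to 305, 239.9 and 277 CPM (log2 fold change -0.96 ± 0.16, adjusted p = 0.00427), and Col6a6 rose from 1.72, 1.83 and 2.52 to 2.58, 6.53 and 3.33 CPM.

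Genes of the arachnoid barrier were called higher only. Of 18 tested genes, 10 were called higher and 0 lower, with a median log2 fold change of 0.54, and 8 were called higher without Aged Sham 3. Slc22a6 (ENSMUSG00000024650, chr19:8618039-8628299), the organic anion transporter OAT1, was at 12.4, 19.4 and 17.8 CPM in Young Sham and 33, 46.7 and 43.7 CPM in Aged Sham (log2 fold change 1.30 ± 0.22, adjusted p = 0.00532). Slc22a8, the related transporter OAT3, was at 27.6, 32.7 and 34.7 CPM against 52.9, 68.8 and 61.3 CPM (log2 fold change 0.95 ± 0.13, adjusted p = 0.00214). The efflux pump P-glycoprotein (Abcb1a) was at 91.2, 108 and 101 CPM against 138, 176 and 152 CPM (log2 fold change 0.63 ± 0.10, adjusted p = 0.00392). All 3 transporters separated the ages without overlap and kept their calls without Aged Sham 3.

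Prostaglandin D synthase (Ptgds), an abundant leptomeningeal product, was at 669, 741 and 769 CPM in Young Sham and 1198, 1469.8 and 1732 CPM in Aged Sham (log2 fold change 1.01 ± 0.16, adjusted p = 0.00418). The efflux transporters Abcg2 and Abcc4 and the arachnoid surface peptidase Dpp4 rose by 0.40 ± 0.10, 0.53 ± 0.13 and 0.56 ± 0.14. The tight junction claudin Cldn11 and the transporter Slc47a1, both arachnoid markers, were not called, at 0.27 ± 0.12 and -0.19 ± 0.10. Prg4 (lubricin) passed with all libraries at 1.78 but rested on 223 CPM in Aged Sham 3, and without that library it was at 0.53 (adjusted p = 0.115). Of 23 tight junction genes 3 were called higher and 1 lower, and 2 (1 of the 3) and 0 without Aged Sham 3.

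**Figure D3:**
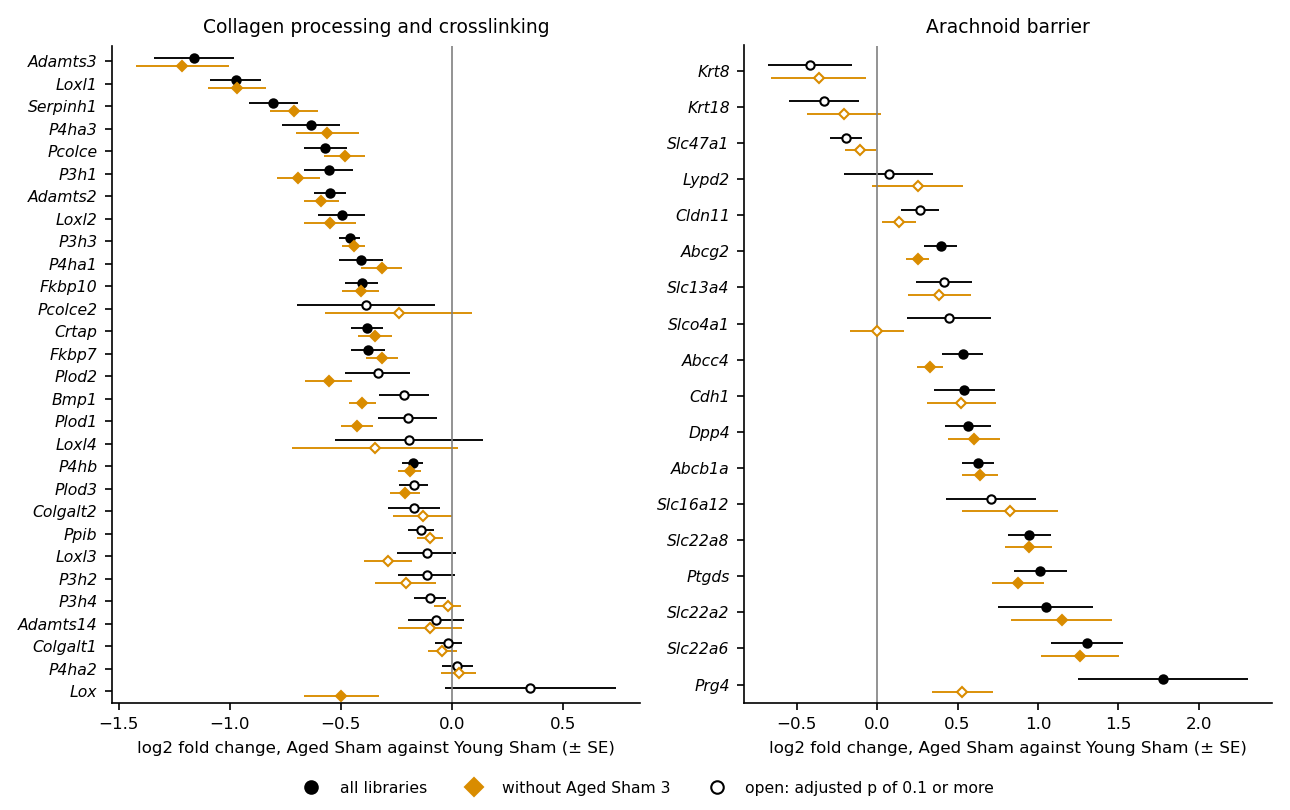
Log2 fold changes of Aged Sham against Young Sham with their standard errors for every tested gene of collagen processing (left) and of the arachnoid barrier (right), with all libraries (circles) and without Aged Sham 3 (diamonds). Open symbols did not pass an adjusted p of 0.1. The 14 collagen processing genes called lie left of 0 and the 10 barrier genes called lie right of it, and Lox and Prg4 move to the left when Aged Sham 3 is left out.

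Of 35 tested transcription factors of meningeal development and fibroblasts, 3 were called higher and 9 lower, and 3 and 12 without Aged Sham 3. Six2 was at 117, 117 and 125 CPM in Young Sham and 73.9, 70.2 and 75.9 CPM in Aged Sham (log2 fold change -0.71 ± 0.06, adjusted p = 0.000239), and Twist1, a mesenchymal factor of the skull and dura, was at 79.5, 82.2 and 94.9 CPM against 64.3, 48.1 and 55.1 CPM (log2 fold change -0.62 ± 0.12, adjusted p = 0.0081). Neither overlapped between the ages. Foxf1 and Osr1 rose by 0.85 ± 0.17 and 0.80 ± 0.13. Foxc1, a regulator of meningeal development, was not called with all libraries (-0.20 ± 0.12) and was called lower without Aged Sham 3 (-0.39, adjusted p = 0.0121).

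Axon guidance genes were called lower in 19 of 64 and higher in 5. Ephb3, an ephrin receptor, was at 58.1, 63.2 and 63.1 CPM in Young Sham and 36.4, 38.3 and 36.3 CPM in Aged Sham (log2 fold change -0.73 ± 0.06, adjusted p = 0.000239). The receptor Epha2 and the ligand Efna5 fell, with log2 fold changes of -0.86 ± 0.16 and -0.79 ± 0.14. The semaphorin Sema5b moved the other way, from 4.39, 5.43 and 4.54 to 13.5, 17.9 and 14.1 CPM (log2 fold change 1.66 ± 0.14, adjusted p = 0.000239), and Epha5 rose from 2.96, 4.28 and 2.78 to 12.8, 9.11 and 7.06 CPM (log2 fold change 1.52 ± 0.26). Ephrin receptors thus passed the test in both directions. Without Aged Sham 3 the counts were 15 lower and 5 higher.

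Of 25 tested Notch and Hedgehog genes, 11 were called lower and 1 higher, and 8 and 2 without Aged Sham 3. The Notch target Nrarp was at 5.82, 8.35 and 7.24 CPM in Young Sham and 3.75, 2.86 and 4.87 CPM in Aged Sham (log2 fold change -0.91 ± 0.22, adjusted p = 0.0272). Hhip, which binds and restrains Hedgehog ligands, rose from 17.2, 20.2 and 20.4 to 26.2, 34.5 and 30.7 CPM (log2 fold change 0.66 ± 0.13, adjusted p = 0.00968). In the Wnt pathway 6 of 45 genes were called higher and 8 lower, and 4 and 8 (5 of the same 8) without Aged Sham 3. Its co-receptor Lrp5, known for its role in bone mass, was at 386, 345 and 379 CPM in Young Sham and 206, 227 and 229 CPM in Aged Sham (log2 fold change -0.75 ± 0.09, adjusted p = 0.00102). The ligands Wnt9b and Wnt6 rose by 1.75 ± 0.41 and 0.83 ± 0.18.

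In the TGF-beta and BMP pathway 6 of 40 genes were called higher and 9 lower, and 2 and 11 without Aged Sham 3. The BMP antagonist noggin (Nog) went from 76.8, 69 and 68 to 46.1, 31.5 and 41.2 CPM (log2 fold change -0.85 ± 0.15, adjusted p = 0.00678), and Gdf10 from 1005, 869.9 and 1179 to 683, 688 and 484 CPM (log2 fold change -0.72 ± 0.13, adjusted p = 0.0067), while the ligand Bmp4 rose from 35.4, 32 and 31.8 to 39.6, 56.6 and 70.7 CPM (log2 fold change 0.75 ± 0.17, adjusted p = 0.0165). Insulin-like growth factor 1 (Igf1), made by macrophages and fibroblasts, was at 247, 232 and 314 CPM in Young Sham and 160.4, 122 and 106 CPM in Aged Sham (log2 fold change -1.03 ± 0.16, adjusted p = 0.00331), lowest in Aged Sham 3. The fetal growth factor Igf2 and the RNA-binding protein gene Igf2bp2 fell, with log2 fold changes of -0.88 ± 0.16 and -1.09 ± 0.17.

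Igf2 is imprinted, like many genes of fetal growth that are known to fall in several organs after birth, and 10 of 22 tested imprinted genes were called lower and 3 higher, with 9 (8 of the 10) and 4 without Aged Sham 3. The noncoding RNA H19, the neighbour of Igf2, was at 1446, 1323 and 1617 CPM in Young Sham and 1086, 875 and 524 CPM in Aged Sham (log2 fold change -0.82 ± 0.19, adjusted p = 0.0208), and Mest fell with a log2 fold change of -0.86 ± 0.21. Peg3 was at 211, 214 and 249 CPM against 151, 138 and 143 CPM (log2 fold change -0.64 ± 0.07, adjusted p = 0.000531), with all aged libraries below all young ones. The maternally expressed RNA Meg3 and neuronatin (Nnat) rose by 0.46 ± 0.11 and 1.11 ± 0.21.

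Interferon-stimulated genes were called higher far more often than the background. Of 44 tested interferon effectors, 35 were called higher and 0 lower (median log2 fold change 0.58), and 29 remained called without Aged Sham 3. Oas1a, an antiviral oligoadenylate synthase, was at 9.54, 6.86 and 9.34 CPM in Young Sham and 14.2, 16.9 and 18.3 CPM in Aged Sham (log2 fold change 0.95 ± 0.17, adjusted p = 0.00616), and Ifi44 was at 6.01, 8.22 and 9.85 CPM against 13.4, 15.4 and 18 CPM (log2 fold change 0.95 ± 0.18, adjusted p = 0.00864). In the Ifi200 family of DNA-binding proteins, 10 of 11 were called higher and 0 lower, and 7 without Aged Sham 3 (median 0.68). Ifi211 was at 6.77, 6.52 and 8.5 CPM in Young Sham and 14.6, 16.7 and 17 CPM in Aged Sham (log2 fold change 1.15 ± 0.19, adjusted p = 0.00412), with no overlap. Members of this family and of the Oas1 genes are close copies, and how their shared reads were counted is not given in the sources used here.

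The interferon-induced GTPases, which answer more to interferon gamma, depended on Aged Sham 3: 6 of 16 were called higher with all libraries and 1 without it, Gbp8 at 0.79 ± 0.15 (and 0.72 without Aged Sham 3). The interferon genes themselves were at the limit of detection, with 0 to 4 counts per library for Ifng and 0 to 1 for Ifnb1. Of 24 tested receptors, sensors and signalling genes, 6 were called higher and 1 lower, and 3 and 1 without Aged Sham 3. The factor Irf7 rose by 0.97 ± 0.21 and the RNA sensor Tlr7 by 0.63 ± 0.15, whereas the feedback inhibitor Socs1 fell from 18.8, 17.4 and 17.1 to 13.2, 10.3 and 8.92 CPM (log2 fold change -0.72 ± 0.14, adjusted p = 0.0105). Receptor genes Ifnar1 and Ifnar2, named after their values were seen, were at -0.05 ± 0.07 and -0.06 ± 0.05 and were not called.

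The 130 bases before the RefSeq start site of 4 called genes are printed here, 5′ to 3′ on the strand of the gene, in the GRCm38.p6 build. The 4 were picked among genes with a match in these bases, and the shares with and without a match stand below. Capitals mark matches to GAAANNGAAA, the core of the interferon-stimulated response element, on either strand (TTTCNNTTTC when read on the other), where overlapping matches run together. Ifit1 lies at chr19:34640759-34640888, plus strand, Oas1a at chr5:120907526-120907655, minus strand, Ifi211 at chr1:173913047-173913176, minus strand and Ifi213 at chr1:173599273-173599402, minus strand.
Ifit1: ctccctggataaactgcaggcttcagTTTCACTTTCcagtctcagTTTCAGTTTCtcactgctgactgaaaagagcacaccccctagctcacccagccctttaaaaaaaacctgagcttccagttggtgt
Oas1a: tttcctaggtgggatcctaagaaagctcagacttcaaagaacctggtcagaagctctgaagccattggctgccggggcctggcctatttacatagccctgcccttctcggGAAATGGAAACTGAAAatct
Ifi211: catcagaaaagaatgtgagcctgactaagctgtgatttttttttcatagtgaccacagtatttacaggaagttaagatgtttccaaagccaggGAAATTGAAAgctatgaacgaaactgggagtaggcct
Ifi213: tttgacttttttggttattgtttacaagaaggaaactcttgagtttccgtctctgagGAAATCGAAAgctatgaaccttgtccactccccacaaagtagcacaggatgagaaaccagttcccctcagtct

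These letters stood in 3.99% of 27025 genes with a RefSeq window from 250 bases before to 50 bases after the start. They stood in 18 of the 32 interferon effectors with a window, 15 of the 25 called higher and 3 of the 7 not called, and in 8 of 10 Ifi200 genes. All 9 interferon-induced GTPases with a window held them, 3 called higher and 6 not called, so that in this list the letters did not separate called from uncalled genes. Over all genes called higher the share was 76 of 1006 (7.55%), and over all genes called lower 30 of 1064 (2.82%). Of the 17 class I antigen presentation genes with a window 4 held them, and of the 8 fibrillar collagens 0 did. In Ifit1 the 2 matches began 104 and 85 bases before the start, and in Ifi211 the single match began 37 bases before it. A match describes these letters only and was not tested as a binding site.

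Antigen presentation genes were called higher as well. Of 23 class I and peptide transport genes, 17 were called higher and 0 lower with or without Aged Sham 3 (16 in both). H2-Q6, a nonclassical class I gene, was at 57.5, 60.2 and 50.7 CPM in Young Sham and 109, 169 and 165 CPM in Aged Sham (log2 fold change 1.39 ± 0.20, adjusted p = 0.00228). It shares sequence with the other H2-Q genes, so reads may be split between them and its own value is uncertain. The class I transactivator Nlrc5, named after its values were seen, was at 17.9, 21.4 and 17.3 CPM against 26.8, 35.8 and 37.3 CPM (log2 fold change 0.81 ± 0.17, adjusted p = 0.0141). Class II genes were called higher in 7 of 12 and in 11 of 12 without Aged Sham 3, led by H2-Eb2 at 1.99 ± 0.49, whereas the invariant chain Cd74 was at 0.15 ± 0.10 with all libraries and was not called (adjusted p = 0.407).

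Genes of the inflammasome, the complex that activates caspase-1, were called higher in 7 of 16 and lower in 0, with or without Aged Sham 3. Casp4, the sensor of cytosolic lipopolysaccharide, was at 6.1, 5.91 and 5.72 CPM in Young Sham and 8.6, 10.9 and 15.3 CPM in Aged Sham (log2 fold change 0.97 ± 0.19, adjusted p = 0.00973). The flagellin sensor Naip5 was at 10.8, 12.4 and 11.2 CPM against 21.4, 22.2 and 17.9 CPM (log2 fold change 0.84 ± 0.11, adjusted p = 0.00126), and the pore-forming gene Gsdmd rose by 0.25 ± 0.07. The adaptor Pycard and the receptor Nlrp3 were not called, at -0.03 ± 0.11 and 0.57 ± 0.24. Of 35 interleukins and their receptors, 11 were called higher and 1 lower, and 6 and 1 without Aged Sham 3. Il7r, the receptor for a T cell survival factor, was at 3.62, 4.55 and 3.2 CPM in Young Sham and 6.8, 8.57 and 9.73 CPM in Aged Sham, and both chains of the interleukin 18 receptor rose, Il18r1 by 0.87 ± 0.22 and Il18rap by 1.17 ± 0.25. In the chemokines 7 of 29 were called higher and 1 lower, and 9 and 1 without Aged Sham 3, where the gene called lower was another one. Ccl8 was at 25.2, 31.3 and 20.5 CPM against 51.1, 64.7 and 65.9 CPM (log2 fold change 1.23 ± 0.16, adjusted p = 0.00136), with 1.17 without Aged Sham 3.

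Of 26 tested T cell receptor genes, 18 were called higher and 1 lower, and 15 and 0 without Aged Sham 3. Cd8a was at 1.53, 1.63 and 2.02 CPM in Young Sham and 4.61, 6.32 and 6.25 CPM in Aged Sham (log2 fold change 1.73 ± 0.22, adjusted p = 0.00126), whereas Cd4, which macrophages also carry, was the gene called lower, at 14.2, 16.4 and 15.6 CPM against 11.3, 13.4 and 9.41 CPM (-0.44 ± 0.15, adjusted p = 0.091, and 0.231 without Aged Sham 3). The inhibitory receptor Pdcd1 (PD-1) was at 0.381, 0.747 and 0.505 CPM in Young Sham and 2.42, 2.31 and 3.08 CPM in Aged Sham (log2 fold change 2.20 ± 0.33, adjusted p = 0.0028). Each aged library exceeded each young one for Cd8a and Pdcd1. Of 19 checkpoint, regulatory and residency genes, 8 were called higher and 1 lower, and 6 and 2 without Aged Sham 3: Tigit rose by 1.37 ± 0.30, and Klf2, a factor of circulating T cells that endothelium also expresses, fell with a log2 fold change of -0.94 ± 0.24. Granzyme genes were called in both directions: Gzmk rose from 0.191, 0.679 and 0.673 to 1.41, 2.86 and 2.19 CPM (adjusted p = 0.0139), and Gzma went from 1.62, 2.58 and 1.51 to 0.313, 0.612 and 0.73 CPM (adjusted p = 0.0144). T cell receptor variable segments were too sparse to test, 1 of 178 passing the filter.

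Antibody genes were among the largest rises. Immunoglobulin genes together took 0.0421 to 0.0773% of the counts in Young Sham and 0.331 to 0.361% in Aged Sham (exact permutation p = 0.1, two-sided, the smallest that 3 against 3 libraries allow). Of 12 constant region genes, 7 were called higher and 0 lower. As a share of heavy chain constant counts, Igha made up 9.31 ± 3.72% in Young Sham and 18.8 ± 4.38% in Aged Sham (SD, n = 3 each, exact permutation p = 0.1), and Ighg2b 5.47 ± 1.37% and 15.6 ± 6.38% (SD, n = 3 each, exact permutation p = 0.1). Ighm held 67.6 ± 14.0% and 52.2 ± 7.26% (SD, n = 3 each, exact permutation p = 0.2), with overlap. One young pool differed in class: Ighg2c was 35.3% of heavy chain counts in Young Sham 2 against 2.95% and 1.52% in Young Sham 1 and 3, which left Ighg2c at 1.43 ± 0.87 (adjusted p = 0.34).

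Of 15 plasma cell genes, 6 were called higher and 0 lower both with and without Aged Sham 3. The B cell coactivator Pou2af1 was at 3.34, 3.8 and 3.62 CPM in Young Sham and 11.7, 14.1 and 8.44 CPM in Aged Sham (log2 fold change 1.67 ± 0.28, adjusted p = 0.00462). Of 19 mature B cell genes, 4 were called higher and 0 lower, and 5 (3 of the 4) and 0 without Aged Sham 3: Cd22 rose by 1.42 ± 0.34 (adjusted p = 0.0246), while Ms4a1 was not called, at 0.44 ± 0.43. Fcrl5, a gene of age-associated B cells, had 0, 0.204 and 0 CPM in Young Sham and 0.938, 0.952 and 0.73 CPM in Aged Sham (adjusted p = 0.0483). Variable segments were called higher in 31 of 55 for the heavy chain and 30 of 64 for kappa, and lower in 0 of both. The filter had kept 55 of 185 heavy chain segments and 64 of 160 kappa segments. A segment could pass it through aged libraries alone, where summed levels were higher. The shares called higher and the 0 called lower were thus partly set by the filter and are not a result about the segments. Without Aged Sham 3 these were 27 heavy chain segments, 22 of them among the 31, and 31 kappa segments, 28 of them among the 30. Single segments were high in single pools of either age: Aged Sham 1 was at least 4 times the next library in 7 genes, all of them segments, and Aged Sham 2 in 7 segments and the chemokine gene Cxcl5, which was called higher only without Aged Sham 3 (adjusted p = 0.163 with it and 0.0762 without). Young Sham 2 was so for the segments Ighv7-3 and Igkv13-84, Young Sham 3 for Igkv3-7 and Aged Sham 3 for 3 segments. Igkv6-25 was at 49 CPM in Aged Sham 2 against 1.02 and 2.35 CPM in the other aged pools.

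Of 19 neutrophil granule genes, 5 were called higher and 0 lower with or without Aged Sham 3: Mpo, Elane, Prtn3, Ctsg and Ms4a3, which are known from granulocyte precursors. Mpo was at 8.77, 3.46 and 4.38 CPM in Young Sham and 14.6, 37.1 and 16.1 CPM in Aged Sham (log2 fold change 2.07 ± 0.39, adjusted p = 0.00826), highest in Aged Sham 2, while the mature neutrophil genes S100a8 and Ltf were not called, at 1.05 ± 0.50 (adjusted p = 0.216) and 1.08 ± 0.59 (adjusted p = 0.28). All 19 genes of the list, called or not, had a positive log2 fold change, with a median of 1.32. Haemoglobin and other erythroid genes were called in 0 of 13 by edgeR and DESeq2, 0 of them at an unadjusted p under 0.05. Border macrophage genes were called in 2 of 20, both lower, Igf1 and Maf (3 lower without Aged Sham 3), and Mrc1 was at -0.16 ± 0.13 (adjusted p = 0.467). Lipid-associated macrophage genes were called higher in 5 of 16 and lower in 0, and in 3 and 1 without Aged Sham 3, Gpnmb at 15.8, 12.2 and 12.4 CPM against 24.5, 22.5 and 58.9 CPM (log2 fold change 1.39, and 0.81 without Aged Sham 3). Megakaryocyte genes passed in 7 of 11 with all libraries and in 2 without Aged Sham 3.

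The complement cascade was called higher in 11 of 26 and lower in 1, and 6 and 2 without Aged Sham 3. C3, the central component, was at 46.2, 44.7 and 31.5 CPM in Young Sham and 55.1, 136 and 84.7 CPM in Aged Sham (log2 fold change 1.17 ± 0.28, adjusted p = 0.0227), and C3ar1, which encodes the receptor for the C3a fragment of C3, was at 24.9, 26.7 and 27.5 CPM against 35.1, 50.4 and 42.2 CPM (log2 fold change 0.69 ± 0.13, adjusted p = 0.00964). Properdin (Cfp), a stabiliser of the alternative pathway, fell from 66.5, 60.3 and 70.4 to 54.6, 49 and 54.9 CPM. Fc receptors, which bind antibodies, were called higher in 5 of 11 (3 without Aged Sham 3), and the neonatal receptor Fcgrt, which recycles immunoglobulin G, was the gene called lower, at 451, 421 and 477 CPM against 375, 398 and 354 CPM (log2 fold change -0.26 ± 0.06, adjusted p = 0.0246). The inhibitory receptor Fcgr2b rose by 0.55 ± 0.13 and the activating receptor Fcgr4 by 1.12 ± 0.31, the latter with 20.6 CPM in Aged Sham 3 and an adjusted p of 0.117 without it.

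Of 30 blood endothelial genes 7 were called higher and 2 lower, and 3 and 2 without Aged Sham 3. The apelin receptor Aplnr was at 20.3, 24.8 and 26.9 CPM in Young Sham and 11.7, 9.72 and 6.49 CPM in Aged Sham (log2 fold change -1.37 ± 0.19, adjusted p = 0.00214), while the pan-endothelial genes Pecam1 and Cdh5 were not called, at 0.14 ± 0.09 and -0.08 ± 0.08. The adhesion molecule Vcam1, which captures leukocytes, rose by 0.62 ± 0.14 and the glucose transporter Slc2a1 by 0.77 ± 0.16. Of 18 mural genes 0 were called higher and 4 lower, Acta2 at -0.47 ± 0.12 and Pdgfrb at -0.44 ± 0.07. Lymphatic genes were called higher in 3 of 15 and in 1 without Aged Sham 3, Sema3d (0.71 ± 0.16). Among vasoactive peptides and hormone receptors, 3 of 30 were called higher and 5 lower, and 2 (1 of the 3) and 9 without Aged Sham 3. The angiotensin receptor Agtr1a was at 5.82, 6.59 and 6.23 CPM in Young Sham and 3.36, 4.01 and 2.6 CPM in Aged Sham (log2 fold change -0.90 ± 0.17, adjusted p = 0.00928), and the clearance receptor Npr3, which removes the peptide of Nppc, was at 118, 112 and 131 CPM against 157, 170.5 and 170.4 CPM (log2 fold change 0.46 ± 0.16, adjusted p = 0.0917, and 0.16 without Aged Sham 3).

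Of 12 tested genes of brain cells, 5 were called higher and 2 lower with or without Aged Sham 3. The synaptic vesicle gene Syt1 was at 36.3, 34.4 and 25.1 CPM in Young Sham and 101, 83 and 89.4 CPM in Aged Sham (log2 fold change 1.51 ± 0.20, adjusted p = 0.00151), whereas the glutamate transporter Slc17a7 was at 55.1, 47.9 and 55.1 CPM against 34.7, 30.7 and 24.6 CPM (log2 fold change -0.81 ± 0.15, adjusted p = 0.00676). The astrocyte channel Aqp4 rose by 0.90 ± 0.13 and Gfap by 0.80 ± 0.20, and the oligodendrocyte gene Mog, not tested, had 1 to 5 counts per library. The pituitary subunit gene Cga was at 1.62, 1.22 and 1.01 CPM against 7.04, 6.32 and 5.92 CPM (log2 fold change 2.33 ± 0.27, adjusted p = 0.000948), with all aged libraries above all young ones. Slc6a2, the noradrenaline transporter of sympathetic fibres, named after its values were seen, was at 0.858, 1.43 and 1.18 CPM against 3.91, 5.03 and 11.5 CPM (log2 fold change 2.52 ± 0.39, and 1.92 without Aged Sham 3). The noradrenaline synthesis gene Th, also named afterwards, was not called (-0.45 ± 0.34). The part of brain, nerve or gland tissue in these values was not tested.

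Lists of basic functions differed in their share of calls. Of 100 nuclear oxidative phosphorylation genes and 82 cytosolic ribosomal protein genes, 0 were called in either direction by edgeR, with or without Aged Sham 3 (6 in each list had an unadjusted p under 0.05, and DESeq2 called 0 in both). In the cell cycle list 1 of 33 was called, lower, and 1 in each direction without Aged Sham 3. Glycolysis and hypoxia genes were called higher in 7 of 25 and lower in 0, and 5 and 0 without Aged Sham 3, with lactate dehydrogenase (Ldha) at 330.3, 344 and 342 CPM against 400.4, 393 and 419 CPM (log2 fold change 0.26 ± 0.05, adjusted p = 0.0113). Senescence and p53 targets were called higher in 2 of 25 and lower in 1, and in 1 and 1 without Aged Sham 3, with Cdkn2c, an inhibitor of cyclin-dependent kinases, at 0.54 ± 0.12. Cdkn2a, named after its values were seen and widely used as a marker of senescent cells, was at 0.477, 1.29 and 1.43 CPM in Young Sham and 1.25, 3.47 and 2.03 CPM in Aged Sham with overlap (1.05 ± 0.47, adjusted p = 0.186). Heat shock chaperones were called lower in 5 of 22 and higher in 0, and in 7 and 0 without Aged Sham 3, Hspa1b at 39.1, 21.7 and 48.5 CPM against 16.2, 19.8 and 18.6 CPM (log2 fold change -0.99 ± 0.22, adjusted p = 0.0169). Hspa1b and its copy Hspa1a share most of their sequence, so its value is uncertain, and Hspa1a was not called (-0.41 ± 0.18). Among immediate early genes, Nr4a1 was at 73.7, 326 and 95.7 CPM in Young Sham and 49.9, 29.5 and 80.1 CPM in Aged Sham, where Young Sham 2 was far above the other young pools and the ages overlapped.

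**Figure D4:**
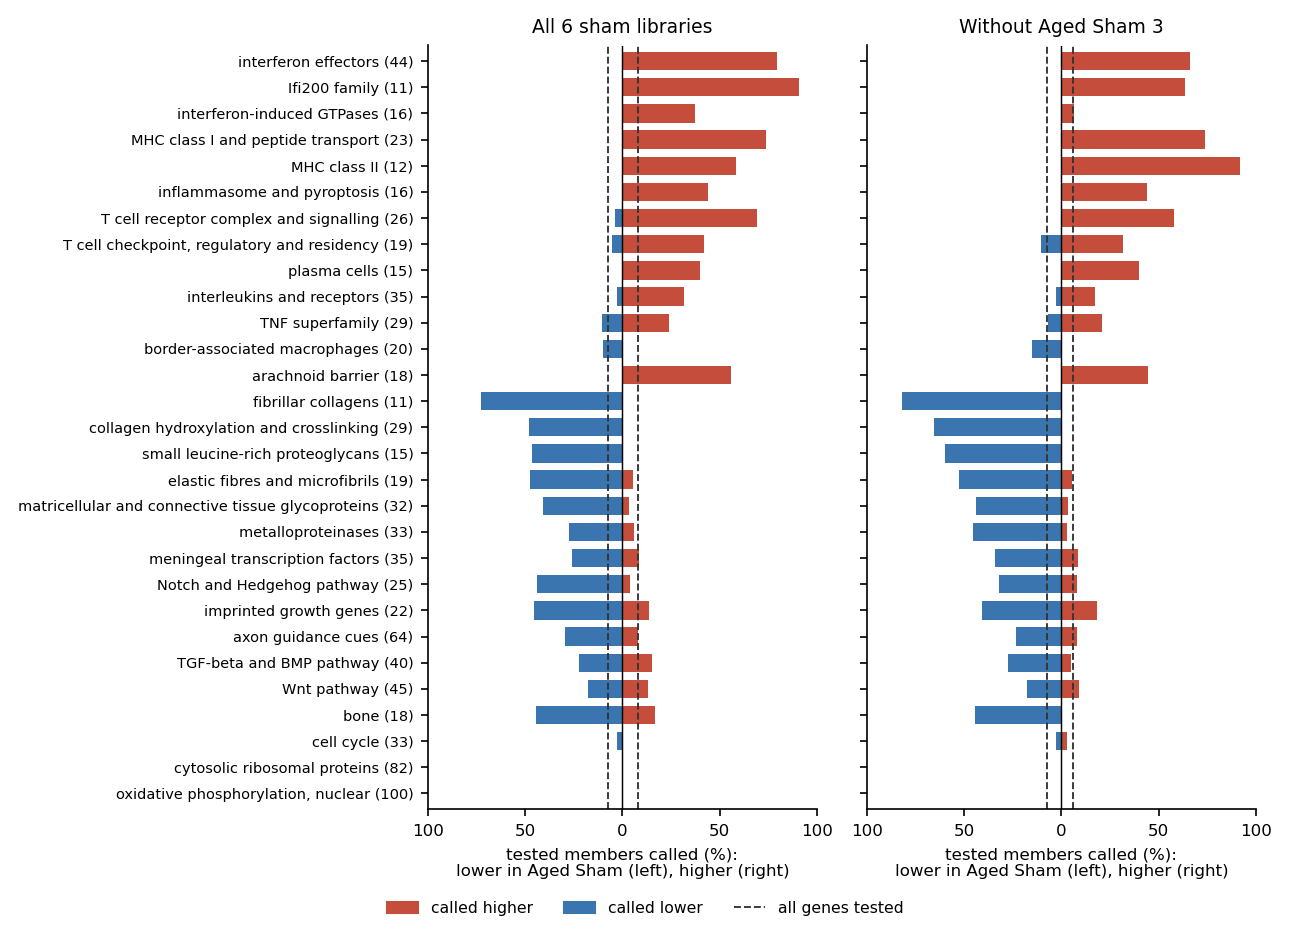
Share of the tested members of each gene list (number tested in parentheses) called higher (right) or lower (left) in Aged Sham, with all libraries and without Aged Sham 3; dashed lines give the shares over all genes tested. Interferon effectors reach 35 of 44 genes called higher and fibrillar collagens 8 of 11 called lower, and the bar of the interferon-induced GTPases shortens from 6 to 1 of 16 genes without Aged Sham 3.

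The injured mice gave a second set of libraries for the same age contrast, with no library in common. Both contrasts were tested in the same fit, with a shared estimate of the spread between libraries, and supplier went with age in both. Agreement between the contrasts is thus not an independent test of an effect of age. Aged TBI against Young TBI gave 3683 called genes (20.2%), 1809 higher (9.92%) and 1874 lower (10.3%), and 2039 without Young TBI 1. Genes called in both comparisons in the same direction numbered 801 higher, which was 55.7% of the sham calls and 44.3% of the injured calls, and 817 lower, 58.1% and 43.6%. Of the genes called in sham mice, 94.2% of those higher and 93.6% of those lower had the same sign in injured mice. The share over all genes tested was not set beside these figures, so how far they exceed it was not tested. Of the genes called in sham mice, 3 were called in the opposite direction in injured mice (Nxnl2, Cpn1 and Kcne4, named for this). Among them, Nxnl2 was not called in sham mice without Aged Sham 3 (adjusted p = 0.223). In injured mice Scgn had a log2 fold change of 2.94 (adjusted p = 3.42e-05), Loxl1 of -0.96 (adjusted p = 0.00078), Slc22a6 of 1.28 (adjusted p = 0.0053) and Six2 of -0.56 (adjusted p = 0.000636). Sult1c1 was at -0.87 (adjusted p = 0.618) and Hspa1b at 0.04 (adjusted p = 0.946) there.

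The difference of the age effect between sham and injured mice was called for 0 of 18238 genes by edgeR (0.00%), where the smallest adjusted p was 0.643 and 1386 genes (7.60%) had an unadjusted p under 0.05. DESeq2 called 5 genes. Kcne4, a regulatory subunit of potassium channels, was at 92.9, 154 and 99.7 CPM in Young Sham and 79.3, 54.3 and 76.9 CPM in Aged Sham, with a log2 fold change of -0.72 ± 0.22 in sham mice and 0.88 in injured mice. Its difference of -1.60 ± 0.32 had an adjusted p of 0.643 in edgeR and it was among the 5 called by DESeq2, together with Bpifb4, Kif1a, Plekha6 and Foxp2. Foxp2, a transcription factor, fell in sham mice (-0.38 ± 0.07) and was at 0.15 in injured mice (adjusted p = 0.192).

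**Figure D5:**
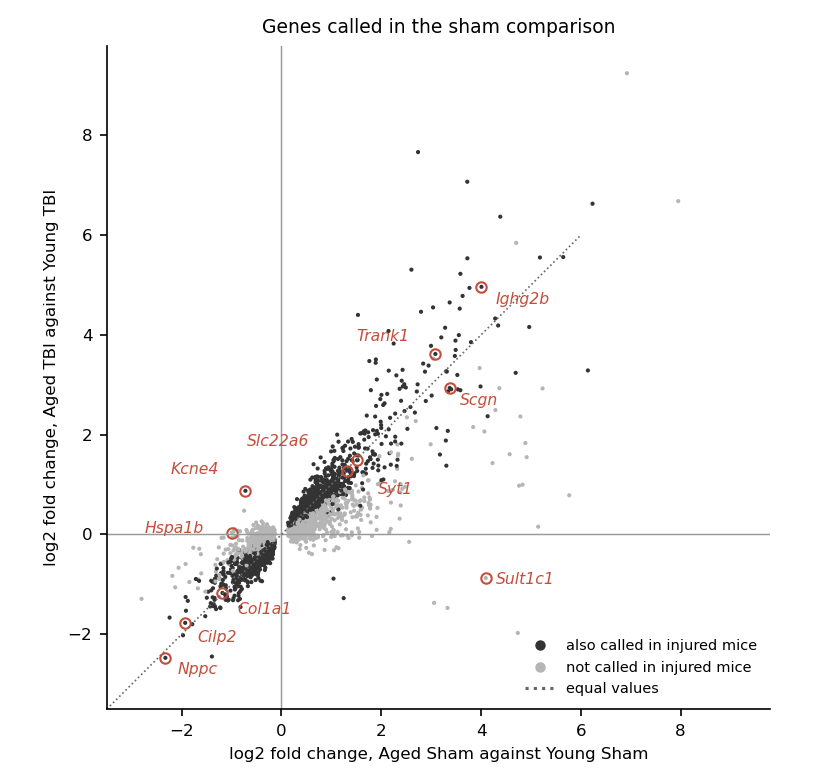
Log2 fold change of Aged Sham against Young Sham (horizontal) and of Aged TBI against Young TBI (vertical) for the 2845 genes called in the sham comparison; dark points were also called in injured mice and the dotted line marks equal values. Of the genes called higher 94.2% and of those called lower 93.6% have the same sign on both axes, and Kcne4, Hspa1b and Sult1c1 lie away from the line.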

How the data were processed

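Bulk RNA was sequenced from the dorsal meninges of 12 pools of mice, of which 6 are compared here. Per the study's methods and notes, the authors aligned reads to the mm10 mouse genome with HISAT2, removed duplicate and uninformative reads with SAMtools and deposited gene counts made with HTSeq. The tool versions, annotation and strand setting are not given in the sources used here, so a gene and an overlapping antisense gene cannot be told apart. The deposited counts were used as they stand, in 55385 rows, of which 18238 passed edgeR's expression filter and held 99.805% of the counts.

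The main test was edgeR 4.0.16 (quasi-likelihood F-test, TMM factors, R 4.3.3) over all 12 libraries with 1 mean per group, Benjamini-Hochberg adjustment over all genes tested and a threshold of 0.1. The SE of a log2 fold change was taken as its size divided by the square root of F. Alternatives were DESeq2 1.42.0, its size factors in edgeR, library totals, no filter, the sham libraries alone, the replicate number as a block, a threshold of 0.05 and each library left out. The method was tested on simulated data. Gene IDs and coordinates are from GENCODE M21 on GRCm38, which matched 53281 rows (96.2%), and promoter sequences are from RefSeq on GRCm38.p6.

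The comparison, the gene lists and the genes named were chosen with earlier results of these data known. Genes are named by a rule on size, level and overlap, as up to 4 called members of a list in each direction or members of lists of 20 genes or fewer, as the largest single-library values and as the smallest interaction p-values. Bmp1, C3ar1, Cdh5, Cdkn2a, Cpn1, Foxc1, Hspa1a, Ifnar1, Ifnar2, Igkv13-84, Igkv3-7, Il18r1, Ldha, Lox, Mmp13, Nlrc5, Nxnl2, Pecam1, Plod1, Plod2, Slc6a2 and Th were chosen after their values were seen. The labels do not say more than that the libraries are separate samples, so the p-values measure the spread between these pools.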

Additional observations from a re-analysis of the deposited data

How the results depend on the processing

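With DESeq2 size factors, library totals, no filter or DESeq2, between 2580 and 2930 genes were called against 2845, within 1.5 times the count reported. A fit of the 6 sham libraries alone called 1802 genes, 922 higher and 880 lower, and a threshold of 0.05 left 1755, 855 higher and 900 lower. Over the 12 fits that left out 1 library each, the calls ranged from 1249 to 3609, those higher from 586 to 1950 and those lower from 663 to 1659.

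In injured mice, where the alternatives were added after seeing the data, the calls ranged from 2039 to 4500 with 1 library left out and fell to 2433 at a threshold of 0.05. The difference between sham and injured mice was called for 5 genes with no filter and for 5 by DESeq2, and for 0 in the other edgeR fits, leave-outs included. Of the 201 genes named and tested, 160 were called and 121 of these kept their call in all 12 leave-outs. A change of sign was found in 5 of the named genes, each without Aged Sham 3, and over the leave-outs their log2 fold changes ranged from -0.49 to 1.05 for Ctsk, from -0.36 to 0.30 for Eln, from -1.74 to 11.46 for Gh, from -0.14 to 3.09 for Ibsp and from -0.50 to 0.65 for Lox. The cause was not tested.

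Replicate numbers did not pair the libraries: the deviations of same-numbered young and aged libraries correlated at -0.15, -0.01 and -0.04 across genes, which are not independent replicates. With the replicate number as a block, 2476 genes were called, 1237 higher and 1239 lower, and of the named genes 7 lost and 1 gained a call. Pools of few animals, 3 libraries a group and counts of 0 to 5 per library for Ifng, Ifnb1 and Mog limit what could be detected.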
